A study of Bos taurus with 3 samples.

Results

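CSF1 (gene ENSBTAG00000000283), colony-stimulating factor 1, and CSF1R (ENSBTAG00000012771), its receptor, were followed in cultures of bovine mesenchymal stromal cells (MSCs). They are 2 of 21861 genes listed, chosen by symbol, and each symbol belonged to 1 gene. Because they were chosen with earlier values of these data known, their levels are given as descriptions without a test.

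CSF1 is secreted or displayed by stromal and other tissue cells and is the main survival and growth factor of macrophages and osteoclast precursors. CSF1R is a tyrosine kinase of the class III family, carried by monocytes, macrophages, microglia and osteoclasts, and it also binds a second ligand, IL34. In marrow and fat, ligand and receptor are therefore usually found on different cells, the ligand on stroma and the receptor on myeloid cells.

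The donor was 1 healthy Holstein-Frisian cow in its first lactation, wild-type and untreated. Its peripheral blood, bone marrow and adipose tissue were all cultured, so the 3 libraries share a donor. Each tissue gave 1 library, made with the 10x Genomics 3' chemistry (version 3.1, per the labels' protocols) after growth in DMEM of low glucose content, supplemented with fetal bovine serum, until MSC colonies were seen. The values are unique molecular identifiers (UMIs), counts of captured RNA molecules, and CPM is a gene's UMIs per 1000000 UMIs of the cells summed. With 1 library per tissue there is no replicate error, no test and no p-value. All intervals are exact 95% intervals that cover counting error only, so tissue, culture and library preparation cannot be told apart.

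After calling cells by UMI total, 6088 adipose, 9281 marrow and 3192 blood cells were kept, 18561 in all. The libraries held 98016815 to 106322567 UMIs, and a kept cell held a median of 14391 UMIs in adipose tissue, 9096 in marrow and 24884 in blood. Pairs of libraries shared 4 to 10 cell barcodes, and 0 shared barcodes carried CSF1R in both libraries. The labelled cell type was checked against 16 stromal markers (collagens, FN1, SPARC, LUM, DCN, PDGFRA and others): 12 or 13 of them reached 50 CPM in the cells outside the macrophage classes of each library. PDGFRB, one of the 16, was at 2.60 to 4.01 CPM over all kept cells.

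Macrophage-like content was measured with 25 macrophage markers (C1QA, CD68, CD163, PTPRC, TYROBP, CTSS and others) that hold neither CSF1 nor CSF1R. A cell whose markers made up at least 1% of its UMIs was called macrophage-like, or mixed if its stromal-marker share was also at least 0.5 of the library median. The other cells are called remaining cells below. Adipose tissue had 0 macrophage-like cells of 6088, which allows a share of up to 0.0493%. Marrow had 522 (5.62%, interval 5.16 to 6.11) and 32 mixed cells, and blood had 73 (2.29%, 1.80 to 2.87) and 0 mixed cells. Of the marrow cells 476 lay between 0.5% and 2% marker share, near the threshold, as did 79 blood cells. All 25 markers were detected in the marrow class and 24 in the blood class, where MARCO was at 0.

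The ligand was highest in the adipose culture. CSF1 was at 1503 CPM in adipose tissue (142578 UMIs, interval 1496 to 1511), 515 CPM in marrow (50894 UMIs, 511 to 520) and 309 CPM in blood (27575 UMIs, 306 to 313). The order was adipose tissue, marrow, blood. CSF1 was 2.92-fold higher in adipose tissue than in marrow (interval 2.89 to 2.95), a comparison in which 2.55% of 3174 genes tested were higher in adipose tissue by at least 2-fold and with at least 50 CPM. It was 4.86-fold higher in adipose tissue than in blood (4.80 to 4.92), where 1.2% of 3161 genes were higher by the same rule. Marrow was 1.67-fold above blood (1.64 to 1.69), below the 2-fold rule that 3.86% of 3131 genes met in that direction.

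The receptor showed another order. CSF1R had 5 UMIs in the kept adipose cells (0.0527 CPM, interval 0.0171 to 0.123), 710 in marrow (7.19 CPM, 6.67 to 7.74) and 393 in blood (4.41 CPM, 3.98 to 4.87). CSF1R was thus near 0 in the culture with the most CSF1, and it was 136-fold higher in marrow (58.2 to 421) and 83.6-fold higher in blood (35.5 to 259) than in adipose tissue. Marrow exceeded blood by 1.63-fold (1.44 to 1.85). No library reached the 50 CPM at which a gene was counted, so CSF1R has no call between whole libraries. The share of macrophage-like cells had the same order over the 3 libraries, which are too few for a correlation.

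Within marrow and blood the levels of the 2 genes differed in opposite directions between cell classes. CSF1R was at 108 CPM in the macrophage-like cells of marrow (385 UMIs, 97.6 to 119), 52.7 CPM in the mixed cells (26 UMIs, 34.4 to 77.2) and 3.16 CPM in the remaining cells (299 UMIs, 2.81 to 3.54). In blood it was at 263 CPM in the macrophage-like cells (210 UMIs, 228 to 301) and 2.07 CPM in the remaining cells (183 UMIs, 1.78 to 2.39). The receptor was therefore 34.2-fold higher in macrophage-like than in remaining cells of marrow (29.4 to 39.96) and 127-fold higher in blood (104 to 156). In these comparisons 17.5% of 3461 genes in marrow and 20.8% of 3681 in blood were higher in the macrophage-like cells by 2-fold and 50 CPM. The marrow ratio was 23.4 to 49.2 at marker-share thresholds of 2% and 0.5%. It was 170 where whole clusters replaced the per-cell classes and the mixed cluster was left out. In blood these values were 40.3 at 2%, 138 at 0.5% and 795 with clusters. At 2% only 7 blood cells stayed macrophage-like, and the others counted as remaining. The mixed clusters left out held 467 marrow and 81 blood cells, with 274 and 150 CSF1R UMIs. Of these cells 42 and 0 had a marker share of at least 1%, so most were remaining cells by the per-cell classes. The cluster ratios thus use another set of cells.

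CSF1 had the opposite placement. It was at 534 CPM in the remaining cells of marrow (50618 UMIs, 530 to 539), 304 CPM in the mixed cells (150 UMIs, 257 to 357) and 35.4 CPM in the macrophage-like cells (126 UMIs, 29.5 to 42.1). In blood it was at 312 CPM in the remaining cells (27574 UMIs, 308 to 316), against 1 UMI among 73 macrophage-like cells (1.25 CPM, 0.0317 to 6.97). The remaining cells exceeded the macrophage-like cells by 15.1-fold in marrow (12.7 to 18.1) and by 249-fold in blood, with a counting interval of 44.7 to 9848 because 1 UMI sets it. At a marker-share threshold of 0.5% the ratios were 7.30 in marrow and 12.5 in blood. With clusters, the mixed ones left out, they were 27.5 and 86.4. By the same rule 38.5% of genes in marrow and 25.2% in blood were lower in the macrophage-like cells. These shares are large in both directions, so a place among them says little about either gene.

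**Figure D1:**
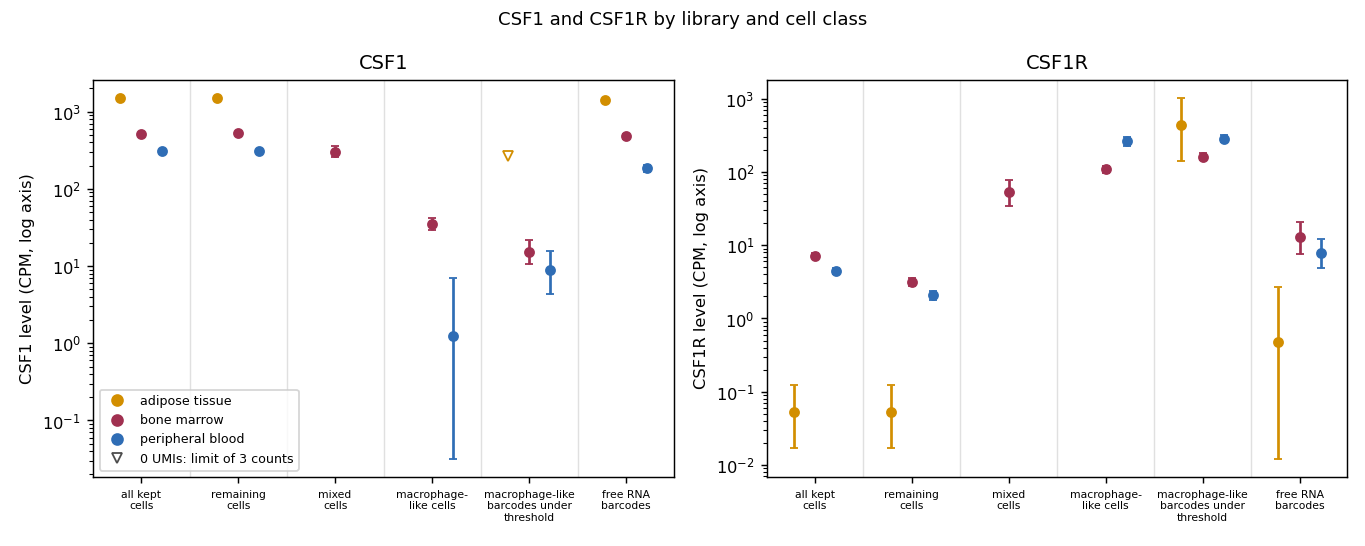
CSF1 (left) and CSF1R (right) in CPM on log axes, by cell class and library; points are values over the summed cells, bars are exact 95% counting intervals, and an open triangle marks the limit of 3 counts where 0 UMIs were found. CSF1 is highest in adipose tissue in the all-cell, remaining-cell and free-RNA columns, and CSF1R reaches 108 CPM in marrow and 263 CPM in blood macrophage-like cells against 3.16 and 2.07 CPM in the remaining cells.

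The receptor level per macrophage-like cell also differed between the cultures. CSF1R was 2.43-fold higher in the macrophage-like cells of blood than in those of marrow (2.05 to 2.88), where 12% of 3008 genes were lower in marrow and 4.16% were higher in marrow by 2-fold and 50 CPM. Per cell, the median CSF1R level was 218 CPM in blood (quartiles 108 to 360) and 0 CPM in marrow (quartiles 0 to 195). At a marker-share threshold of 2% only 7 blood cells remained and the ratio was 1.41 (0.714 to 2.51), an interval that includes 1. Clustering placed 511 of the 522 marrow cells in cluster 5 and 73 of the 73 blood cells in cluster 8, both macrophage-like. The 10 leading genes of the marrow cluster held 5 macrophage and 2 neutrophil markers, and those of the blood cluster held 3 and 0. The marrow cells were shallower, with a median of 5932.5 UMIs against 9802 in blood.

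Markers of other cells were looked at in the same classes. Of 10 neutrophil markers, 3 were detected in the macrophage-like cells of each culture, S100A8, S100A9 and S100A12, and they summed to 25901 CPM in marrow and 487 CPM in blood. CSF3R, CXCR2, MPO, ELANE, LTF, MMP8 and CAMP were at 0 in both. Of 10 lymphocyte markers, NKG7 carried nearly all of the 413 and 378 CPM, while CD3D, CD3G, CD79A, CD79B and MS4A1 were at 0. Of 6 dendritic markers listed, FLT3, CLEC9A, XCR1 and CCR7 were at 0 in both. CD1E and BATF3 were at 50.5 and 51.1 CPM in the marrow macrophage-like cells, against 0.644 and 1.27 CPM in the remaining cells, and the list summed to 102 CPM in marrow and 12.5 CPM in blood. The 13 endothelial markers summed to 78.3 and 20.02 CPM, with KDR, TEK, TIE1 and CLDN5 at 0 in both. VWF made up 71.9 CPM of the marrow sum, against 2.07 CPM in the remaining cells. The 7 mural markers summed to 2.25 and 1.25 CPM. Of 16 stromal markers 15 were detected in the marrow class, at a sum of 360 CPM against 11948 in the remaining cells, and 12 in the blood class, at 384 against 17816. The part of the calgranulins or of stromal RNA in the CSF1R values was not tested.

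Each cell was then thinned at random to 3000 UMIs, a depth that all kept cells exceeded, so that shares of cells could be set side by side. CSF1 was present in 89.8% of adipose cells (89.0 to 90.5), 61.2% of marrow cells (60.2 to 62.2) and 46.7% of blood cells (45.0 to 48.5). Without thinning the shares were 98.6%, 82.8% and 88.3%, so blood stood above marrow only at its greater depth. Adipose cells held a mean of 4.63 CSF1 UMIs at the thinned depth, and 41.1% of them held 5 or more. Among remaining cells of marrow the mean was 1.61 with 8.38% at 5 or more, and in blood it was 0.957 with 3.11%.

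CSF1 varied more between cells than counting alone gives. The variance of the thinned count was 3.61 times its mean in adipose cells, 2.38 times in remaining marrow cells and 2.14 times in remaining blood cells, where counting error alone gives about 1. At equal relative spread this ratio rises with the mean, which was 4.63, 1.61 and 0.957 UMIs. It therefore does not rank the cultures by how much CSF1 varied. Genes other than CSF1 and CSF1R were not measured this way. The median adipose cell was at 1285 CPM, with 343 and 3101 CPM at the 10th and 90th percentiles. The median remaining cell of marrow was at 384 CPM (0 and 1254 at those percentiles) and that of blood at 203 CPM (23.4 and 779). These spans overlapped between all 3 cultures although the levels over summed cells were apart. Cells of 1 culture are not replicates of a tissue.

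For the receptor, 29.9% of macrophage-like cells of marrow (26.0 to 34.0) and 52.1% of those of blood (40.04 to 63.9) carried CSF1R at 3000 UMIs. In the remaining cells CSF1R was seen in 0.699% in marrow (0.535 to 0.897) and 0.545% in blood (0.318 to 0.871). In remaining cells with a marker share under 0.1%, CSF1R was in 12 of 8307 marrow cells (0.144%) and 2 of 3037 blood cells (0.0659%). Both shares in the macrophage-like cells lie far above these. Whether the low-marker cells lack the receptor was not tested. Unthinned, 46.6% of the marrow class and 87.7% of the blood class carried it, at median depths of 5932.5 and 9802 UMIs, against 0.686% and 0.889% of the low-marker cells, at median depths of 9111 and 24926 UMIs. In adipose tissue 0 of 6088 cells had a CSF1R UMI after thinning, against 5 (0.0821%) without it. The count per cell was low: the variance was 1.05 times the mean in marrow and 1.11 times in blood, and the highest thinned count was 4 UMIs in both.

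**Figure D2:**
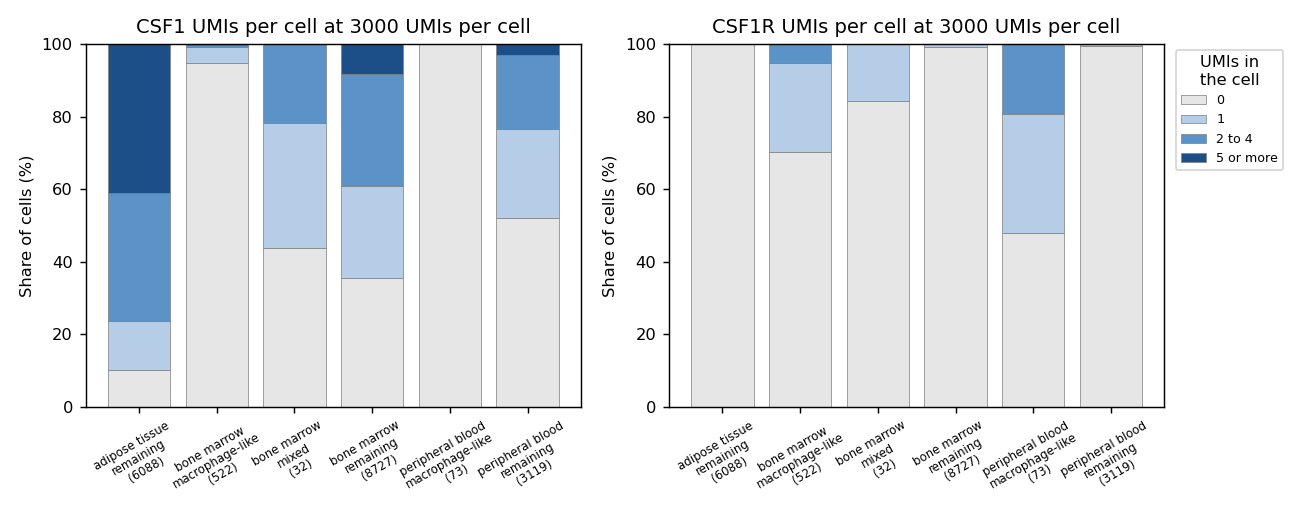
Share of cells (%, stacked to 100) that held 0, 1, 2 to 4, or 5 or more UMIs of CSF1 (left) and CSF1R (right) after thinning each cell to 3000 UMIs, by library and class, with the number of cells in brackets. CSF1 at 5 or more UMIs is found in 41.1% of adipose cells, and CSF1R is seen mainly in the macrophage-like cells of marrow and blood.

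CSF1R was also followed along the macrophage-marker share of single cells, without the class threshold. In marrow it was at 0.534 CPM in the 5454 cells with no marker UMI, 0.848 CPM above 0 and up to 0.1%, 29.4 CPM at 0.1 to 0.5%, 46.3 CPM at 0.5 to 1%, 86.9 CPM at 1 to 2% and 122.7 CPM at 2 to 5%. In blood the levels in the same bands were 0.178, 0.366, 42.1, 92.9, 271 and 172 CPM. The last blood band held 7 cells and 12 CSF1R UMIs (89.1 to 301), so its place below the band before it is within counting error. Marker share and CSF1R therefore went together in both libraries, as a description across cells that share a library. The widest step was at 0.1%, below the class threshold, so the remaining cells held part of the receptor.

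CSF1 went the other way along the same bands. In marrow it was at 552, 532, 437, 363, 103 and 15.9 CPM. In blood it was at 330, 312, 225 and 256 CPM in the first 4 bands, then 1.37 CPM at 1 to 2% (1 UMI in 66 cells) and 0 UMIs in the last 7 cells, which allows up to 43.1 CPM. Between 0.1% and 1%, 164 of 420 remaining marrow cells and 57 of 82 blood cells carried both transcripts. The median depth of all cells at 0.1 to 0.5%, 15134 UMIs in marrow and 30787 in blood, was above the library medians. In adipose tissue 4 cells reached 0.1 to 0.5%, with 4 CSF1 UMIs and 0 CSF1R UMIs, and 0 kept cells lay higher. Those 4 cells carried endothelial markers at a sum of 7469 CPM.

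**Figure D3:**
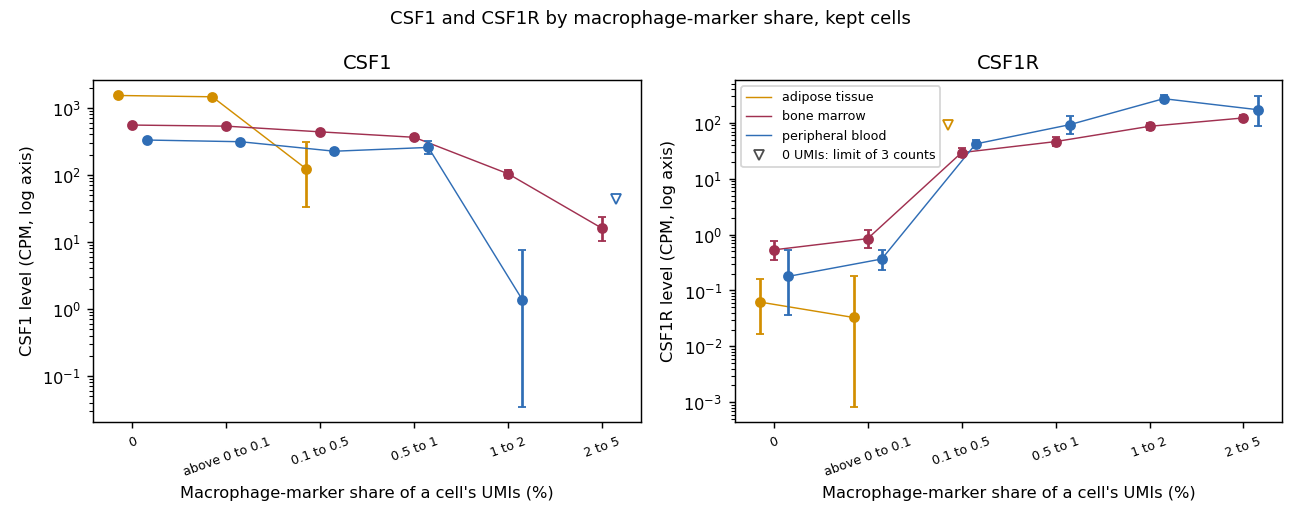
CSF1 (left) and CSF1R (right) in CPM on log axes, by the share of a cell's UMIs that fell on 25 macrophage markers; points are values over the summed cells of a band, bars are exact 95% counting intervals, lines join the bands of a library, and open triangles mark the limit of 3 counts at 0 UMIs. In marrow CSF1R goes from 0.534 to 122.7 CPM from the first band to the last while CSF1 goes from 552 to 15.9 CPM.

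Barcodes that carried both transcripts were counted next. Unthinned, both were present in 5 adipose cells (0.0821%, 0.0267 to 0.192), 264 marrow cells (2.84%, 2.52 to 3.203) and 81 blood cells (2.54%, 2.02 to 3.14). At 3000 UMIs per cell the counts were 0, 48 and 5. Of the cells with CSF1R, those with both were 5 of 5, 264 of 496 and 81 of 156 without thinning. Beside them, 98.6%, 82.8% and 88.3% of all kept cells carried CSF1 without thinning. In marrow and blood CSF1 was thus rarer among cells with CSF1R than among all kept cells. Cells with CSF1R alone numbered 0, 232 and 75, of which 219 in marrow and 63 in blood had a marker share of at least 1%. In marrow 44 of the 264 cells with both had such a share, 164 lay between 0.1% and 1%, and 56 lay below. In blood the corresponding counts were 1, 57 and 23. The cells with both were deep, with median UMI counts of 20466 in adipose tissue, 14774 in marrow and 33840 in blood. Each of the 5 adipose cells held 1 CSF1R UMI beside 161 CSF1 UMIs in all, and 5 of 5 had a marker share under 0.1%.

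Most cells with both transcripts fell in 1 cluster of each culture. Each library was clustered alone without CSF1 and CSF1R. In marrow 185 of 264 (70.1%) were in cluster 6, 467 cells led by CCL3, MMP9 and RETN, where 39.6% of cells carried both. In blood 55 of 81 (67.9%) were in cluster 7, 81 cells led by MMP9, C5AR1 and S100A12, where 67.9% carried both. Both clusters are called mixed, since they had at least 3 macrophage markers among their 50 leading genes and a stromal share of at least 0.5 of the library median. They were also deep, with median UMI counts of 14212 and 30981. No doublet caller was run, and whether such a barcode held 1 cell or a pair of cells was not tested.

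The ratio of each member to transcripts of its usual source was then compared between classes. In blood CSF1R stood at 16.4 UMIs per 1000 macrophage-marker UMIs in the macrophage-like cells (14.3 to 18.8), 16.1 in remaining cells of 0.1 to 1% marker share (13.7 to 18.8) and 12.5 in free RNA (7.71 to 19.1), the barcodes of 10 to 100 UMIs. These 3 intervals overlap, but that of free RNA, from 21 UMIs, is too wide to show equal ratios. Over all remaining blood cells the ratio was 10.1 (8.65 to 11.6), below that of the macrophage-like cells. In marrow it was 5.55 in the macrophage-like cells (5.01 to 6.13), 4.63 in the mixed cells (3.03 to 6.79), 4.76 in free RNA (2.77 to 7.62) and 8.17 at 0.1 to 1% (7.17 to 9.27). The last value lies above that of the macrophage-like cells. Below 0.1% it was 13.7 in marrow (10.4 to 17.7, 58 UMIs) and 3.27 in blood (2.17 to 4.72, 28 UMIs). Over all remaining blood cells, LAPTM5 and CTSS held 5765 and 3908 of the 18203 marker UMIs. In the macrophage-like cells of blood they held 707 and 2405 of 12772. The marker UMIs thus differ in make-up between these classes, and their source in the remaining cells was not tested. CSF1R per marker UMI was thus 2.96-fold higher in the macrophage-like cells of blood than in those of marrow (2.49 to 3.51).

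CSF1 was set against the UMIs of COL1A1, COL1A2 and COL3A1, collagen genes of stroma. There were 316 CSF1 UMIs per 1000 collagen UMIs in adipose cells (314 to 317), 75.3 in remaining marrow cells (74.7 to 76.0) and 27.3 in remaining blood cells (26.9 to 27.6). Free RNA had 297 in adipose tissue (286 to 308), 89.0 in marrow (82.1 to 96.3) and 27.3 in blood (24.9 to 29.8). The order over cultures was the same in free RNA and stroma, and their intervals overlapped in blood but not in adipose tissue or marrow. In the macrophage-like cells of marrow the ratio was 198 (165 to 236), above the stromal ratio of that library, and in those of blood it was 5.71 (0.145 to 31.8), from 1 UMI. CSF1 itself was at 1398, 476 and 184 CPM in free RNA of adipose tissue, marrow and blood, and CSF1R at 0.478, 13.1 and 7.90 CPM.

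The CSF1 of the marrow macrophage-like cells lay in few cells. Of 522 cells, 52 carried CSF1, and 38 of these carried 1 UMI. The 11 cells that clustering placed outside the macrophage-like cluster held 62 of the 126 UMIs, at 428 CPM and a median depth of 14182 UMIs. The other 511 cells held 64 UMIs at 18.7 CPM, and their ratio to collagen was 156 per 1000. In those 511 cells CSF1 was present in 8.61% at a median depth of 5874 UMIs, which is low beside the 87.2% of remaining marrow cells at a median depth of 9224 UMIs. Their CSF1 level lay below that of free RNA in CPM, while its ratio to collagen lay above the 89.0 of free RNA. The part of free RNA and of joined cells in these UMIs was not tested.

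CSF1 differed among stromal clusters within each culture. A cluster with 3 or more stromal markers at 50 CPM or above, and with no other class in the lead, is called stromal-like. In adipose tissue the 5 such clusters of at least 50 cells spanned 1220 CPM in cluster 4 (ANKRD1, ACTA2, SFRP2) to 1637 CPM in cluster 2 (FAM83D, TOP2A, UBE2C, genes of dividing cells), a 1.34-fold range. In marrow the 5 clusters spanned 463 CPM in cluster 3 (H3C3, H2AC12, H3C7) to 1111 CPM in cluster 4 (IGFBP5, TINAGL1, UNC13D), 2.40-fold. In blood the 7 clusters spanned 80.0 CPM in cluster 1 (ANKRD1, FST, BASP1) to 559 CPM in cluster 3 (MEOX1, ALDH1A1, MDFI), 6.98-fold. The range was widest in blood and narrowest in adipose tissue, and no marrow or blood cluster reached the lowest of these adipose clusters at this resolution.

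Some neighbours in that order were apart beyond counting error and others were not. In marrow cluster 2 (H2BC15, ADAMTS1, CENPA) was second at 621 CPM, while clusters 0, 1 and 3 lay at 475, 464 and 463 CPM with overlapping intervals. In blood cluster 4 (LRRN4CL, ENSBTAG00000020097, TIMP3) was at 541 CPM, next to cluster 3 with overlapping intervals, and clusters 6, 0, 5 and 2 followed at 428, 339, 258 and 200 CPM. In adipose tissue clusters 0, 1 and 3 lay at 1547, 1542 and 1536 CPM with overlapping intervals. ANKRD1, a target gene of the YAP pathway, led the lowest of these clusters in adipose tissue and in blood, while H3C3 led the lowest in marrow. At Leiden resolution 1.0, with more and smaller clusters, the ranges were 2.32-fold, 4.14-fold and 8.42-fold, and the highest adipose cluster was at 2038 CPM (led by CCL2). At that resolution the lowest adipose cluster (ANKRD1, SFRP2, RGCC) was at 879 CPM, below the 1113 CPM of the highest marrow cluster. The lowest blood cluster there, at 75.7 CPM, was led by LMCD1, OLR1 and ANKRD1.

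Small adipose clusters were lower still. The endothelial-like cluster of 39 cells (SELE, EMCN, SELP) was at 229 CPM of CSF1 (186 to 278), and cluster 6, 23 cells led by ACTG2, was at 148 CPM (108 to 198). CSF1R was not detectable in either at this number of cells (0 UMIs). In the macrophage-like clusters CSF1 was at 19.8 CPM in marrow (cluster 5, led by FABP4, LYZ and S100A9) and 3.65 CPM in blood (cluster 8, led by SCIN, TREM2 and PLAC8B). CSF1R was at 110 and 262 CPM there, and at 35.2 and 45.6 CPM in the mixed clusters. In the stromal-like clusters of at least 50 cells it was at most 0.129 CPM in adipose tissue, 0.909 in marrow and 0.743 in blood, from 5, 57 and 28 UMIs summed over those clusters.

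**Figure D4:**
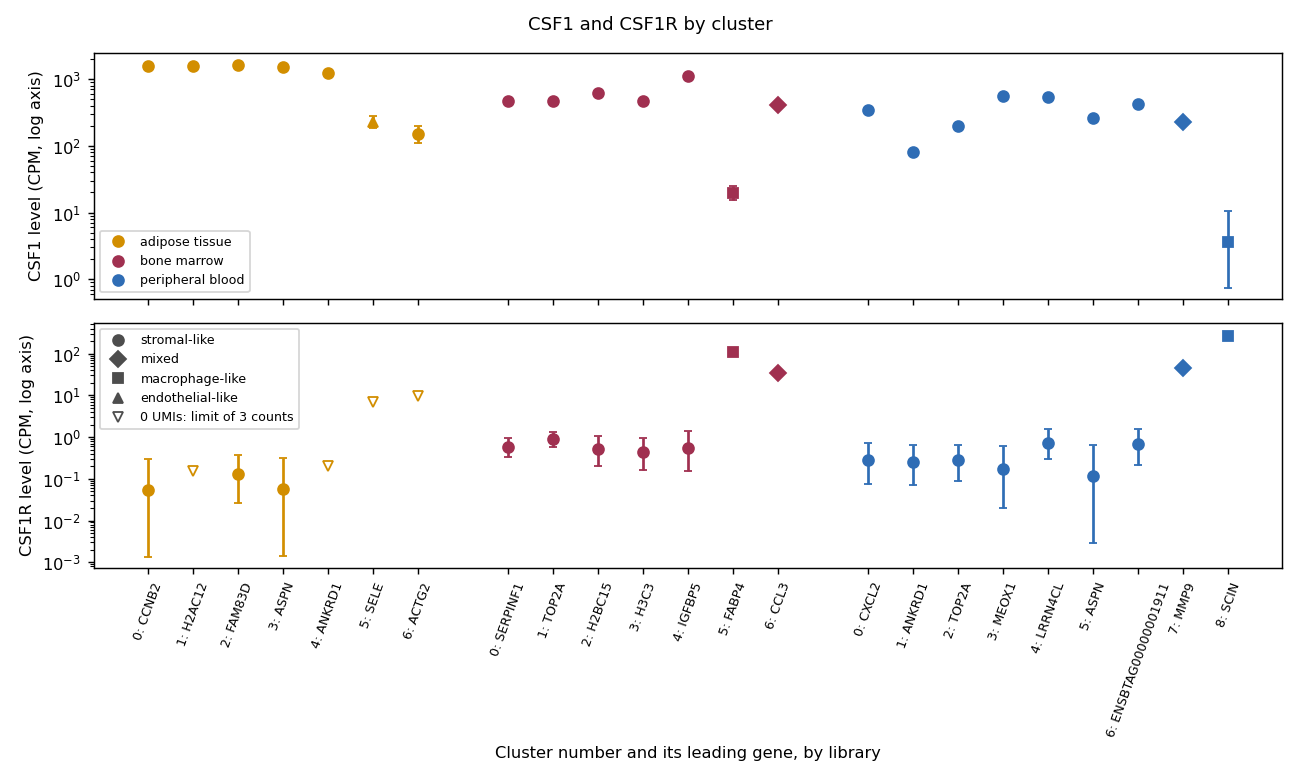
CSF1 (top) and CSF1R (bottom) in CPM on log axes for each cluster, in library order and labelled by number and leading gene; the marker shape gives the cluster name, bars are exact 95% counting intervals, and open triangles mark the limit of 3 counts at 0 UMIs. CSF1R stands out in the macrophage-like clusters (110 and 262 CPM) and the mixed ones (35.2 and 45.6 CPM), and CSF1 is lowest in the macrophage-like clusters.

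The cell cycle accompanied small differences in CSF1. Remaining cells were split by their share of UMIs on S-phase and G2/M genes. In adipose tissue CSF1 was at 1472 CPM in low-cycling, 1507 in S and 1518 in G2/M cells. In marrow it was at 564, 518 and 527 CPM, and in blood at 335, 349 and 272 CPM. Within the low-cycling cells adipose tissue exceeded marrow by 2.61-fold (2.56 to 2.66) and blood by 4.39-fold (4.29 to 4.50), so both ratios were smaller there and kept their direction.

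A large part of the receptor lay below the cell threshold. Each whole library, empty barcodes included, held 11 CSF1R UMIs in adipose tissue, 1121 in marrow and 810 in blood. In marrow 34.3% of them were in kept macrophage-like cells, 31.7% in macrophage-like barcodes of 1000 UMIs up to the threshold of 4414 UMIs, and 26.7% in kept remaining cells. In blood the shares were 25.9%, 43.7% and 22.6%, with a threshold of 7489 UMIs. Of the whole library, 21.5% in marrow and 19.1% in blood lay in remaining cells with a marker share of at least 0.1%. The ligand was placed otherwise: 96.1% of CSF1 UMIs in adipose tissue, 94.7% in marrow and 96.1% in blood were in kept remaining cells.

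With all barcodes of at least 1000 UMIs, macrophage-like barcodes numbered 4 in adipose tissue, 1258 in marrow (11.8%) and 306 in blood (8.67%), against 0, 522 and 73 among kept cells. The shares of macrophage-like cells given above thus depend on the UMI threshold. CSF1R then differed by 1.25-fold between marrow and blood (1.14 to 1.38), less than among kept cells.

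**Figure D5:**
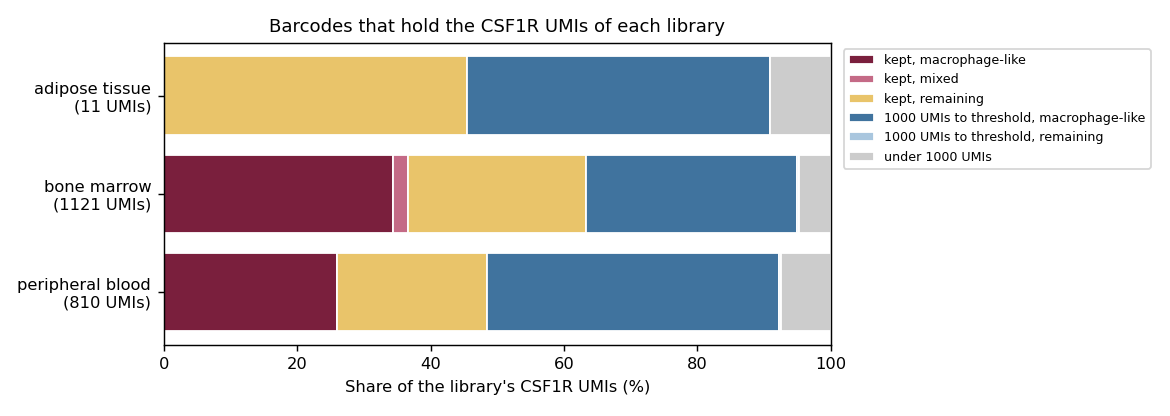
Share (%) of each library's CSF1R UMIs by the class of the barcode that held them, for kept cells, barcodes from 1000 UMIs to the cell threshold, and barcodes under 1000 UMIs; the total is in brackets. Macrophage-like barcodes under the threshold hold 31.7% of the receptor UMIs in marrow and 43.7% in blood, and adipose tissue has 11 UMIs in all.

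Other members of the CSF1 pathway were read from a list of 57 genes, of which 56 were listed and 54 remain without CSF1 and CSF1R. Among ligands, IL34 (ENSBTAG00000009357) was at 9.93 CPM in adipose tissue, 6.65 in marrow and 18.7 in blood, so the order differed from that of CSF1, with blood highest. It was at 6.88 and 18.9 CPM in the remaining cells of marrow and blood, and had 1 UMI (0.281 CPM) in the macrophage-like cells of marrow and 0 UMIs in those of blood, which allows up to 3.75 CPM. Among other receptors bound by IL34, PTPRZ1 had 5 UMIs in adipose tissue and 0 in marrow and blood, which allows up to 0.0304 and 0.0336 CPM, and SDC1, a heparan sulphate proteoglycan, was at 29.2, 95.2 and 63.3 CPM. ADAM17, the protease that sheds CSF1R and CSF1 from the cell surface, was at 28.8, 19.8 and 29.7 CPM, with no call between libraries.

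Between whole libraries 7 to 9 of the list reached the level at which a gene was tested. Of 9 tested in adipose tissue against marrow, 0 were higher and 4 lower in adipose tissue (SDC1, PDGFA, TYROBP and MMP9). Over all genes tested, 2.55% were higher and 4.35% lower. The median log2 ratio of the 9 was 0.00 against 0.10 over all genes tested. Of 7 tested in adipose tissue against blood, 0 were higher and 2 lower (SDC1 and MMP9). Beside them 1.2% of all genes were higher and 3.83% lower, with medians of 0.01 and 0.13. Of 9 tested in marrow against blood, PDGFA and TYROBP were higher and PDGFRA lower in marrow. Beside them 3.86% of genes were higher and 3.9% lower there, with medians of 0.06 and 0.02. CSF1 was called higher in adipose tissue while no other list member was, over all kept cells. With so few members tested and such shares over all genes, that sets no contrast with CSF1. In remaining cells alone, 8 list members were tested in adipose tissue against marrow. CTSK, a collagen-degrading protease, was 2.13-fold higher in adipose tissue (2.10 to 2.16), and SDC1, PDGFA and MMP9 were lower, beside 2.56% of genes higher and 3.82% lower. Against blood, 0 of 7 were higher in adipose tissue and SDC1 and MMP9 were lower, beside 1.27% and 3.83% of genes. Between marrow and blood, PDGFA was higher and PDGFRA lower in marrow among 8 tested, beside 3.35% and 4.11% of genes. MMP9 was among the leading genes of the mixed clusters of marrow and blood, whose cells lay mostly among the remaining cells. The part of those cells in the MMP9 difference was not tested.

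Between macrophage-like and remaining cells most of the tested list was higher with CSF1R. In marrow 13 of 16 tested members were higher and 2 (SDC1 and PDGFA) lower in macrophage-like cells, beside 17.5% of all genes tested higher and 38.5% lower, with a median log2 ratio of 2.66 against -0.68 over all genes tested. In blood 11 of 17 were higher and 2 (SDC1 and PDGFRA) lower, beside 20.8% and 25.2% of all genes, with medians of 2.41 and -0.24. TYROBP and SPI1, among others, belong to the macrophage markers and PDGFRA to the stromal markers that defined the classes, so their difference is part of the definition. The list was chosen with results known, and its members passed the filter through the class where they were high.

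Among genes that act below the receptor and were not used to define the classes, LYN, a Src-family kinase, was at 262 CPM in macrophage-like and 15.5 CPM in remaining cells of marrow, and at 318 and 4.48 CPM in blood. FES, a tyrosine kinase, was at 136 and 34.7 CPM in marrow and at 203 and 38.2 CPM in blood. PTPN6, a phosphatase that dampens the signal, was at 106 and 22.8 CPM in marrow and at 98.9 and 42.2 CPM in blood. GRB2, the adaptor that links the receptor to RAS, was at 155 and 75.1 CPM in marrow and at 205 and 69.2 CPM in blood. PIK3R1, a regulatory subunit of PI3 kinase, was at 50.8 and 22.9 CPM in marrow.

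Transcription factors and osteoclast genes were read next. Of the factors known at the CSF1R locus, ETS2 was at 105 CPM in macrophage-like and 10.7 CPM in remaining cells of marrow, and at 283 and 28.01 CPM in blood. FLI1 was at 56.7 and 6.61 CPM in marrow and at 116 and 5.74 CPM in blood. RUNX1 and CEBPB, other factors of that group, stayed below 20 CPM in all classes. Of osteoclast genes, ACP5, the tartrate-resistant phosphatase, was at 249 and 4.88 CPM in marrow and at 92.6 and 1.69 CPM in blood, and MMP9 was at 1602 and 50.7 CPM in marrow and at 5964 and 63.4 CPM in blood. TNFSF11, the RANK ligand that acts with CSF1 in osteoclast formation, was at most 0.0336 CPM over the kept cells of each library, and OCSTAMP and DCSTAMP, genes of osteoclast fusion, were at 23.9 and 8.14 CPM in the marrow macrophage-like cells.

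Between the macrophage-like cells of marrow and blood, 5 of 14 tested list members were apart besides CSF1R, 2 higher and 3 lower in marrow, beside 4.16% and 12% of all genes tested. ETS2 was 2.69-fold (2.27 to 3.19), FLI1 2.05-fold (1.59 to 2.64) and MMP9 3.72-fold (3.58 to 3.87) higher in blood, in the direction of CSF1R. ACP5 was 2.69-fold (2.12 to 3.46) and CTSK 3.90-fold (3.42 to 4.48) higher in marrow. The median log2 ratio of the 14, marrow over blood, was 0.04 against -0.30 over all genes tested.

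The genes most like each member across clusters were listed by Pearson's r of log2(CPM + 1) over the 21 clusters of at least 50 cells, among 4116 genes. For CSF1R they were TREM2 (r = 0.996), MSR1, CLEC12A, RGS1, PLAC8A, C5AR1, CD37 and CD163 (0.995), genes known from myeloid or other white blood cells. CSF1R shares its high clusters with them. MSR1 and CD163 are among the macrophage markers. For CSF1 they were NDUFB2 (r = 0.957), COX20, UQCRC1, NDUFB5, TUFM, NDUFS3, PSMD13 and PMPCB (0.937), most of them genes of mitochondrial proteins. Within the 17 stromal-like clusters, with each library's mean taken off, the 8 nearest to CSF1 were SEPTIN6 (r = 0.929), JAK1, TP53BP1, FIS1, ADIRF, HPCAL1, LGR4 and ST6GALNAC4 (0.845). The lists for CSF1 shared 0 genes. These values describe clusters that share libraries and depth, and each set of 8 was picked for the highest r, among 4116 genes or, within stromal-like clusters, 3483.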

How the data were processed

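The authors deposited UMI counts per gene and barcode, as whole numbers from Cell Ranger, version 6.1.1 per the submitters' processing notes and version 4 per the file headers. Which of these made the matrices was not settled. The submitters' processing notes name ARS-UCD1.2 as genome build. Matrices held empty barcodes too. A barcode was called a cell from 1/10 of the UMI total at the 99th percentile among the 3000 largest, that is from 4438.5 UMIs in adipose tissue, 4414 in marrow and 7489 in blood. Limits of 500 genes and 20% mitochondrial UMIs removed 0 cells. No doublet caller was run.

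Each library was clustered with scanpy 1.11.5 and leidenalg 0.10.2 without CSF1 and CSF1R: 10000 UMIs per cell, log scale, 2000 variable genes, 30 components, 15 neighbours, resolution 0.5, seed 1. A class name other than stromal-like needed 3 markers among the 50 genes of largest fold. A gene was tested where the higher group had at least 50 CPM and called at 2-fold. Intervals for CPM (Poisson), ratios (conditional) and shares (Clopper-Pearson) are exact at 95% in scipy 1.17.1, cover counting error only, and a count of 0 is given the limit of 3 counts. UMIs remove amplification copies, but cells of a culture are not independent samples. The members, lists and classes were chosen with earlier results of these data known. Named genes are CSF1, CSF1R, list members at 10 CPM or more in a library or class, leading genes of clusters and the 8 of highest r, with mitochondrially encoded and ribosomal protein genes left out of that ranking. The low osteoclast and fusion genes, the ligand-family genes and the markers at 0 were named after their values were seen. On simulated counts of 21861 genes, 200 of 200 genes changed 3-fold and 0 of 200 changed 1.5-fold were called in each pair of libraries. The changed genes lay well above 50 CPM, and the simulated counts held counting error only. The 2-fold rule thus fixed this outcome, which does not bear on genes near 50 CPM or on variation between cultures. Alternatives were other scalings (TMM from edgeR 4.0.16), cell sets, thresholds, depths and clusterings. Those for the macrophage-like cells of blood against marrow were chosen after the data were seen. Results that need certain withheld genes are not reported here.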

Additional observations from a re-analysis of the deposited data

Results flagged for a closer look

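Barcodes between 1000 UMIs and the cell threshold are outside the main comparisons, and CSF1R was found there above the limit that a count of 0 allows. In macrophage-like barcodes of that range CSF1R was at 439 CPM in adipose tissue, 161 CPM in marrow and 283 CPM in blood. The adipose value rests on 4 barcodes with 5 CSF1R UMIs (143 to 1025), the marrow value on 736 barcodes with 355 UMIs (145 to 179) and the blood value on 233 barcodes with 354 UMIs (254 to 314). The marrow level lies above the 108 CPM of kept macrophage-like cells (97.6 to 119), and the blood interval overlaps that of kept macrophage-like cells, at 263 CPM (228 to 301). The 4 adipose barcodes held 1973 to 3870 UMIs, 9 to 17 of the 25 macrophage markers and 0 CSF1 UMIs, and none of the 4 barcodes had 1000 UMIs or more in another library. CSF1R was in 3 of the 4. The other 291 adipose barcodes of that range had 0 CSF1R UMIs and CSF1 at 1613 CPM.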

How the results depend on the processing

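No paired analysis was possible because each tissue has 1 library, so the groups share fewer than 2 replicate numbers. Of 92 alternatives over 20 results, 33 stayed within the counting interval (for counts of cells, within 1.5 times), 59 moved beyond it and 0 reversed. Only ratios could be labelled reversed, and the ranges over clusters could not reverse by construction. The order of marrow and blood in the share of cells with CSF1 did switch without thinning, and was counted as moved. The counting intervals are narrow at this depth. Macrophage-like cells of blood at 2% held 0 CSF1 UMIs, so that ratio was not computed.

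CSF1 in adipose tissue over marrow was 2.81 with TMM, 2.78 with median-of-ratios factors, 2.81 in remaining cells, 2.77 in stromal-like clusters, 2.61 in low-cycling cells, 2.88 with the UMI threshold doubled, 2.98 over barcodes of at least 1000 UMIs and 3.05 as a mean over cells. Adipose tissue over blood was 4.65 and 4.68 with the same scalings, 4.79 in stromal-like clusters, 4.39 in low-cycling cells, 4.77 with the threshold doubled and 4.93 from 1000 UMIs. Marrow over blood was 1.71 in remaining cells, 1.73 in stromal-like clusters and 1.60 as a mean over cells. CSF1R in marrow over blood was 1.98 in stromal-like clusters, 2.12 in low-cycling cells, 2.36 with the threshold doubled, 1.25 from 1000 UMIs and 1.13 as a mean over cells.

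CSF1R in macrophage-like over remaining cells of marrow was 49.2 at 0.5% marker share, 23.4 at 2%, 169.6 and 169.8 with clusters at resolutions 0.5 and 1.0, and 41.1 from 1000 UMIs. In blood it was 40.3 at 2%, and 795 and 768 with clusters. CSF1 in remaining over macrophage-like cells of marrow was 7.30 at 0.5%, 33.0 at 2%, 27.5 with clusters at either resolution and 19.3 from 1000 UMIs, and in blood 12.5 at 0.5%. Mixed clusters were left out of all these cluster ratios. CSF1R in macrophage-like cells of blood over marrow was 1.41 at 2%, where 7 blood cells remained.

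Shares of cells with CSF1 at 6000 UMIs, 1000 UMIs and without thinning were 96.3%, 67.5% and 98.6% in adipose tissue, 78.2%, 34.1% and 82.8% in marrow, and 63.7%, 22.8% and 88.3% in blood. Shares of macrophage-like cells with CSF1R were 40.4%, 12.8% and 46.6% in marrow and 72.6%, 20.5% and 87.7% in blood. Without thinning, cells with both numbered 5, 264 and 81. The range of CSF1 over stromal-like clusters was 2.32-fold in adipose tissue, 4.14-fold in marrow and 8.42-fold in blood at resolution 1.0, and 2.62-fold in marrow with another seed. Cell calling, class threshold and depth thus set the size of these values. The causes of other shifts were not tested. CSF1R in adipose tissue rests on 5 UMIs and CSF1 in macrophage-like cells of blood on 1 UMI, so their counting intervals are wide.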

Other observations

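Other colony-stimulating factors were sparse in the same cells. CSF2 was at most 0.111 CPM and CSF3 at most 0.0897 CPM over the kept cells of a library. CSF2RA and CSF2RB, the chains of the CSF2 receptor, were at 2.25 and 6.46 CPM in the marrow macrophage-like cells and at 3.75 and 8.76 CPM in those of blood, against at most 0.0739 CPM in remaining cells. CSF3R was at 0 UMIs in the kept cells of each library. Of the ligands of related kinases, KITLG was at 20.2 CPM in adipose tissue, 4.35 in marrow and 7.89 in blood, so adipose tissue was highest, as for CSF1. FLT3LG was at 5.81, 4.80 and 10.1 CPM, with blood highest, as for IL34. The receptors KIT and FLT3 were at most 0.213 CPM and at 0 UMIs. INPP5D, a lipid phosphatase that limits PI3 kinase signalling, was at 34.5 CPM in macrophage-like and 2.10 CPM in remaining cells of marrow, and at 45.1 and 0.396 CPM in blood.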
